A study of Homo sapiens with 22 samples.

Results

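The transcript clusters described here are those whose ID carries the chromosome code 19. A transcript cluster is the unit in which the GeneChip Human Transcriptome Array 2.0 reports a transcribed region, and its ID begins with TC and a 2-character chromosome code. Of the 65526 clusters measured, 2674 (4.081%) began with TC19, which placed the code at rank 14 of 25 by number of clusters. Of these, 2665 were numbered between 1 and 2724, with 59 numbers absent from the table, and 9 carried the scaffold name gl000209_random in their IDs. Membership used the ID alone, but the code itself was chosen by the median log2 differences and shares of called clusters per chromosome code seen earlier in these data, so counts and medians over the 2674 clusters are descriptions without a test. Each single cluster was tested among all 65526 with limma, a linear model that moderates the variance of each cluster, and a cluster was called at a Benjamini-Hochberg adjusted p under 0.05.

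JHOC9 and JHOC5 are established lines of ovarian clear cell carcinoma. All 22 arrays came from cells infected with a lentivirus, the controls included. JHOC9 was infected with the SPINK1 KD #9 virus (3 arrays), the IL-6 KD#58 virus (3 arrays) or the NT control virus (5 arrays), and JHOC5 with the same 3 viruses in the same numbers. SPINK1 encodes a secreted trypsin inhibitor and IL-6 is an inflammatory cytokine, and each was targeted by 1 virus only, so an effect of the target and of that virus cannot be told apart. JHOC9 was kept in 20% serum and JHOC5 in 10% serum, so the line and its medium cannot be told apart. The titles place the NT arrays in separate experiments but give the KD arrays a letter only, so p-values measure the spread between arrays, which may in part be technical. The RNA was bulk RNA, in which fewer cells expressing a transcript and less transcript per cell cannot be told apart, and the normalization removes any shift common to the whole array. Neither table links a cluster ID to a gene symbol. Genes are therefore not named, neither the 2 target genes nor epithelial markers were analysed here, and each cluster goes by its ID without the ending that all IDs share.

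Human chromosome 19 is known as the most gene-dense and among the most GC-rich of the human chromosomes. It carries long tandem families, among them the KRAB zinc finger genes, most of which encode transcriptional repressors, the kallikrein proteases, the carcinoembryonic antigen family and the leukocyte receptor complex. In the RefSeq annotation of GRCh38.p14, 1451 of 20056 protein-coding genes (7.2347%) lie on it, as do 250 of the 517 genes with a symbol starting with ZNF (48.356%). These annotation counts could not be joined to the clusters and serve as background only. The order of the IDs was used below as an order of names and was not converted to genome positions.

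Code 19 clusters were bright on these arrays. Their median log2 signal over the 22 arrays was 6.002 (quartiles 4.788 and 7.064), against 4.813 (quartiles 3.408 and 6.284) for clusters of all other codes. When all clusters were cut into 4 equal classes by mean signal, the brightest class (log2 signal above 6.33) held 1104 code 19 clusters, 41.3% of them, against 24.3% of the other clusters. The dimmest class (below 3.44) held 234 code 19 clusters, 8.75% of them, against 25.7% of the others. In ID order, the brightest stretch of 50 clusters ran from TC19000979 to TC19001028 with a median log2 signal of 7.089, and the dimmest ran from TC19000823 to TC19000872 with a median of 2.812.

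The brightness held in each group. In JHOC9 the median log2 signal of the code 19 clusters was 6.023 ± 0.0925 with the SPINK1 virus (SD, n = 3), 6.098 ± 0.0545 with the IL-6 virus (SD, n = 3) and 6.047 ± 0.0513 with the NT virus (SD, n = 5). In JHOC5 it was 5.933 ± 0.0464 with the SPINK1 virus, 5.913 ± 0.0981 with the IL-6 virus and 5.884 ± 0.0487 with the NT virus (SD, n = 3, 3 and 5). Within a line the differences between these medians were of the size of the SDs.

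Relative to the rest of the array, code 19 clusters stood higher in JHOC9 than in JHOC5. For each array, the log2 signal of every cluster was taken relative to its median over all 22 arrays, and the median over code 19 clusters minus the median over the others was computed. This difference was 0.041 ± 0.037 in JHOC9 SPINK1 KD arrays, 0.0616 ± 0.0516 in JHOC9 IL-6 KD arrays and 0.0337 ± 0.0208 in JHOC9 NT arrays (SD, n = 3, 3 and 5). In JHOC5 it was -0.0292 ± 0.025 in SPINK1 KD arrays, -0.042 ± 0.0461 in IL-6 KD arrays and -0.0569 ± 0.0286 in NT arrays (SD, n = 3, 3 and 5). All 11 JHOC9 arrays lay above 0, and 10 of 11 JHOC5 arrays lay below it, with JHOC5 IL-6 KD replicate a at 0.00968. Each cluster was centred over 11 arrays of each line, so a difference between the lines by itself places 0 between them. The code was also chosen by such median differences, so this split is a description of the line difference. The KD arrays of a line overlapped its NT arrays.

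**Figure D1:**
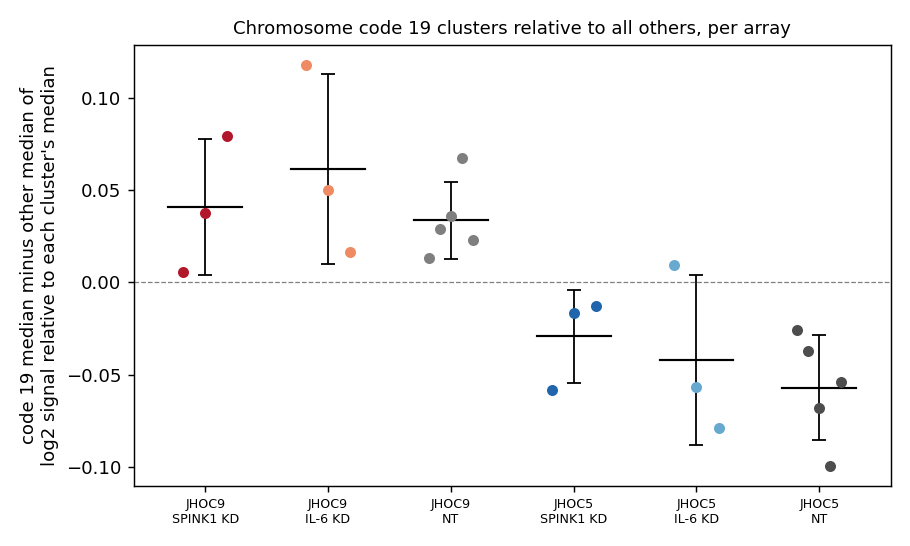
Each point is 1 array, and the vertical axis is the median over code 19 clusters minus the median over all other clusters of the log2 signal relative to each cluster's median over all arrays. Lines and whiskers are the mean and SD of each group. All 11 JHOC9 arrays lie above 0 and 10 of 11 JHOC5 arrays below it. Each cluster is centred over 11 arrays of each line, so a line difference by itself places 0 between the lines.

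Between the lines under the control virus, code 19 clusters differed often and mostly in 1 direction. In JHOC9 NT against JHOC5 NT, 1093 of 2674 code 19 clusters (40.9%) were called by limma, against 30.1% of all clusters tested. Of these, 908 were higher in JHOC9 (34%, against 17% of all clusters) and 185 were lower (6.92%, against 13% of all clusters). Changes of at least 2-fold were called for 130 higher and 20 lower code 19 clusters, and changes of at least 1.5-fold for 308 higher and 53 lower. Clusters with repeated values, described below, are counted each time, and shares of all clusters at these fold sizes were not computed. The median log2 difference was 0.1275 for code 19 clusters and 0.05086 for the others. Among the 25 codes, code 19 had the highest median (0.0737 above that of all clusters, next code 15 at 0.0424) and the highest share called (next code X at 35%). Those 2 ranks belong to the values for which the code was chosen and are given as a description.

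The same clusters were then compared on arrays that the NT comparison did not use, a check chosen after seeing the data. Between SPINK1 KD arrays of JHOC9 and of JHOC5, 670 code 19 clusters were higher and 137 lower (30.2% called, against 22.7% of all clusters). Of these code 19 calls 83% were higher, against 53% of the calls over all clusters. Between IL-6 KD arrays of JHOC9 and of JHOC5, 739 were higher and 166 lower (33.8% called, against 25.3% of all clusters). Here 81.7% of the code 19 calls were higher, against 56.1% of the calls over all clusters. Of the 908 clusters higher in JHOC9 NT arrays, 625 were also called higher on the SPINK1 KD arrays and 660 on the IL-6 KD arrays, and 0 were called lower on either. Their median log2 difference was 0.408 on SPINK1 KD arrays and 0.387 on IL-6 KD arrays, beside 0.414 on NT arrays. Of the 185 clusters lower in JHOC9 NT arrays, 107 and 131 were called lower on the SPINK1 KD and IL-6 KD arrays. The 3 comparisons use different arrays but share each cluster's estimate of spread. The numbers called again were not set against those over all clusters, so the recurrence is not shown to be particular to code 19.

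The largest single differences between the lines were far beyond the spread of the arrays. TC19000279 had log2 signals of 12.78, 12.82, 12.82, 12.66 and 12.81 in the JHOC9 NT arrays a to e, against 7.342, 7.314, 7.531, 7.737 and 7.862 in the JHOC5 NT arrays a to e. It was high in every JHOC9 array, and the lines did not overlap. The log2 difference was 5.22 ± 0.0907 (SE), 37.3-fold, with a limma adjusted p of 2.33e-20. TC19000699 had the opposite pattern, with 6.319, 5.966, 6.688, 6.554 and 6.267 in the JHOC9 NT arrays a to e, against 10.6, 10.81, 10.96, 10.73 and 11.14 in the JHOC5 NT arrays. All of its JHOC9 values lay below all of its JHOC5 values, and the log2 difference was -4.49 ± 0.129 (SE; limma adjusted p 9.98e-17). Both clusters kept this order on the KD arrays, where TC19000279 lay between 12.56 and 12.71 in JHOC9 and between 7.227 and 8.018 in JHOC5, and TC19000699 between 6.082 and 6.692 in JHOC9 and between 10.41 and 11.17 in JHOC5.

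The line difference was present at each signal level. Within every signal class a larger share of code 19 clusters than of other clusters was higher in JHOC9 NT arrays than in JHOC5 NT arrays, and a smaller share was lower. In the brightest class, 528 of 1104 code 19 clusters (47.8%) were higher in JHOC9, against 28% of other clusters, and 126 (11.4%) were lower, against 26.4%. In the dimmest class, 30 of 234 (12.8%) were higher, against 6.03%, and 1 (0.427%) was lower, against 3.8%. The median log2 difference of code 19 clusters was 0.0646, 0.111, 0.121 and 0.175 in the classes ordered dimmest to brightest, beside 0.0347, 0.062, 0.0743 and 0.0363 for the other clusters. Averaged over classes with the code 19 clusters as weights, a summary added after seeing the data, code 19 clusters stood 0.0834 above the others.

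**Figure D2:**
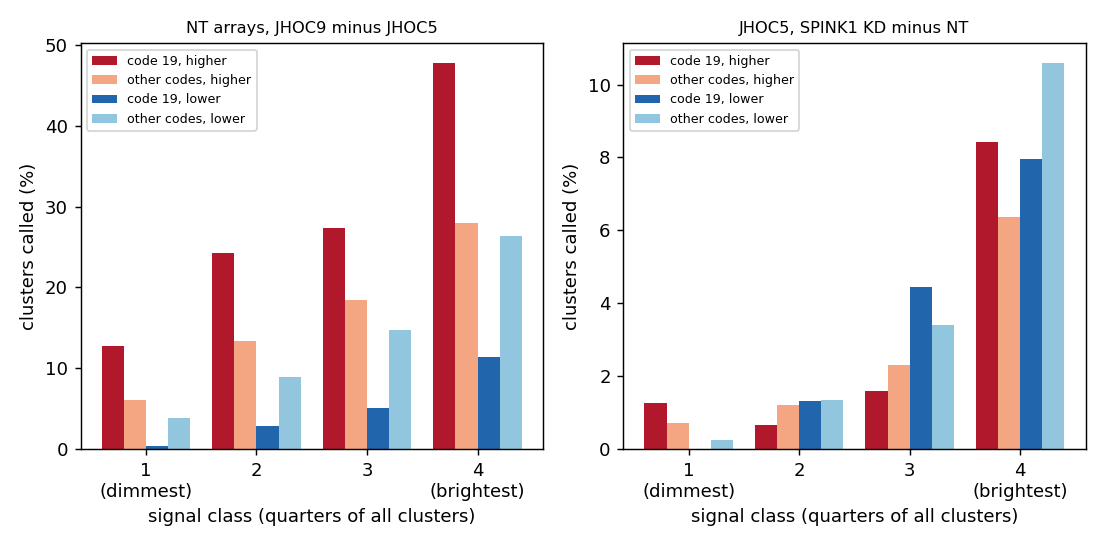
Share of clusters called (%) by signal class, in code 19 and in all other codes, for JHOC9 minus JHOC5 on NT arrays (left) and for SPINK1 KD minus NT in JHOC5 (right). In the brightest class of the left panel 47.8% of code 19 clusters are higher in JHOC9 and 11.4% lower. In the right panel 8.42% are higher and 7.97% lower. Clusters with repeated values are counted each time.

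In ID order, the line difference was spread over most of the code. Of 54 consecutive windows of 50 clusters, 54 had a median above 0 and 51 had a median above that of the other codes. Clusters of the other codes also had a positive median (0.05086), and 64.8% of them lay above 0, against 80.7% of code 19 clusters. Windows of the other codes were not computed, so the count above 0 is not shown to be particular to code 19. The highest window ran from TC19000309 to TC19000360 (median log2 difference 0.36), with 34 clusters higher and 1 lower in JHOC9. The lowest ran from TC19000461 to TC19000512 (median 0.0295), with 10 higher and 14 lower.

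**Figure D3:**
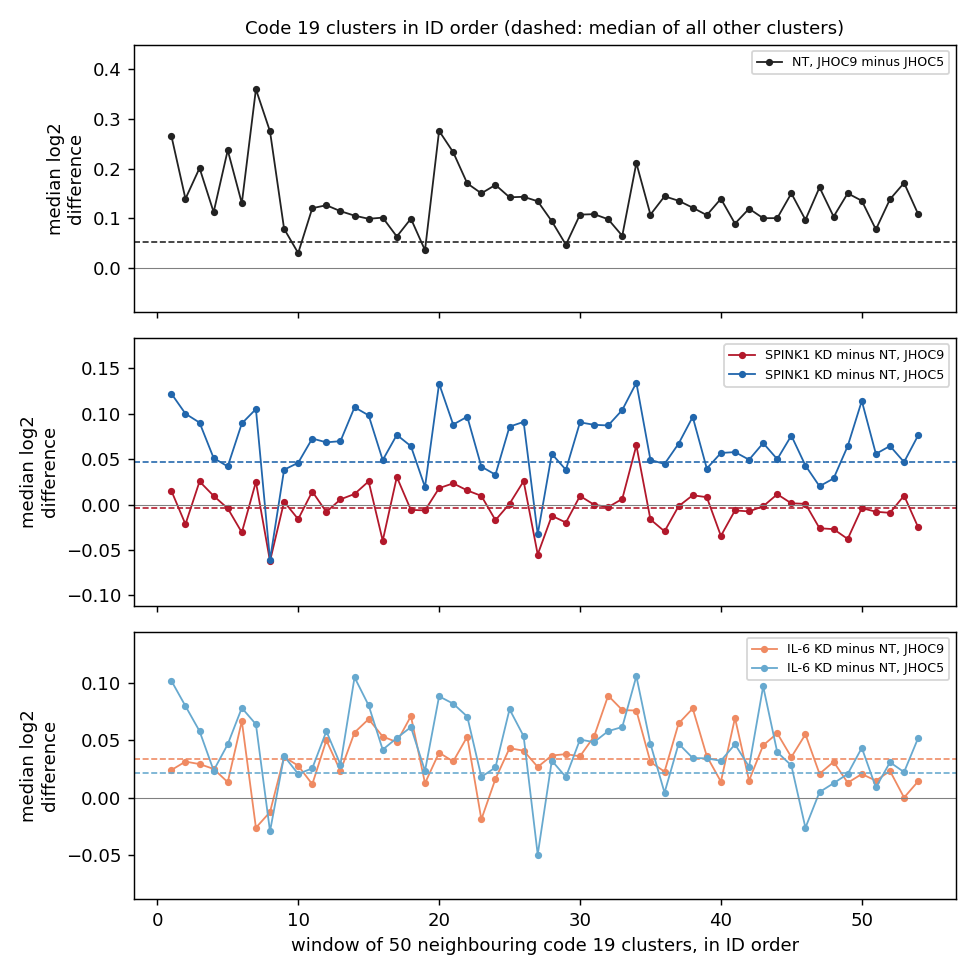
Median log2 difference of each window of 50 neighbouring code 19 clusters, in ID order, for JHOC9 minus JHOC5 on NT arrays (top), SPINK1 KD minus NT (middle) and IL-6 KD minus NT (bottom) in both lines, with dashed lines at the median of all other clusters. All 54 windows lie above 0 in the top panel, as does its dashed line. TC19000361 to TC19000410, window 8, is the lowest in the middle panel for both lines.

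Called neighbours formed runs. Some of these rest on repeated values: 27 code 19 clusters in 8 sets shared their values with another code 19 cluster on all 22 arrays, so only 2655 were distinct. Among the distinct clusters, 438 of the calls on NT arrays (40.6%) lay in runs of 3 or more neighbours called in the same direction, against 20.7% of the calls in other codes. Of the 96 such runs, 93 were higher in JHOC9 and 3 lower. A code with more calls in 1 direction holds more runs, so these shares are descriptions. The correlation of neighbouring log2 differences across distinct clusters, given without a test since neighbours share the same arrays, was 0.173 in code 19 and 0.188 in the other codes. With the SPINK1 virus against NT it was 0.176 and 0.0965 in JHOC5, and 0.102 and 0.0505 in JHOC9. With the IL-6 virus against NT it was 0.226 and 0.103 in JHOC5, and 0.0818 and 0.0656 in JHOC9. For SPINK1 KD against IL-6 KD in JHOC5 it was 0.0649 and 0.0815.

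The longest run of distinct clusters held 14 clusters between TC19001194 and TC19001208. Its median log2 signal was 6.609, 6.619, 6.637, 6.663 and 6.751 in JHOC9 NT arrays a to e, against 6.322, 6.263, 6.339, 6.305 and 6.394 in JHOC5 NT arrays a to e. All JHOC9 arrays lay above all JHOC5 arrays, and the clusters' log2 differences ran from 0.154 to 0.868 with a median of 0.364. A run is made of called clusters, so separation of its median on the arrays compared is largely fixed by that choice, here and below. The largest limma adjusted p among the 14 was 0.0166. The run between TC19000023 and TC19000037 held 13 distinct clusters and larger differences, from 0.198 to 1.56 with a median of 0.968. It counts as 1 run because TC19000026, which repeats TC19000021 and was not called, was left out, and as listed it is a run of 3 and a run of 10. A further run of 10, TC19002616 to TC19002625, had a median of 0.511 and was also called whole on the SPINK1 KD arrays (median 0.43) and on the IL-6 KD arrays (median 0.473).

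The run with the largest differences was for the most part 1 measurement under many IDs. TC19001731 to TC19001739 had identical values on every array, as did 3 further IDs numbered between TC19000688 and TC19000691, which made 12 copies of 1 set of values. That set had log2 signals of 10.01, 10.52, 10.27, 10.17 and 9.995 in JHOC9 NT arrays a to e, against 8.139, 7.647, 7.994, 7.822 and 8.121 in JHOC5 NT arrays a to e. The lines did not overlap, and the log2 difference was 2.25. With the SPINK1 virus in JHOC5 it was 8.303, 8.38 and 8.922, all above the 5 JHOC5 NT arrays, a log2 change of 0.59 (limma adjusted p 0.0162). The IL-6 KD arrays of JHOC5, at 8.505, 8.281 and 8.278, also lay above all NT arrays, with a log2 change of 0.41 that was not called. SPINK1 KD minus IL-6 KD was 0.18 there and was not called. Counted once it is 1 cluster, and counted as listed it is 12 of the 113 rises given below for SPINK1 KD in JHOC5.

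The SPINK1 virus changed code 19 clusters in both directions in JHOC5. There, SPINK1 KD against NT called 113 code 19 clusters higher and 133 lower, 246 in all (9.2%, against 6.54% of all clusters). The share higher was 4.23%, against 2.68% of all clusters, and the share lower 4.97%, against 3.86%. Changes of at least 1.5-fold were called for 19 higher and 20 lower clusters, and of at least 2-fold for 0 higher and 3 lower. The 19 rises include the 12 copies of 1 set of values described above (log2 change 0.59). They also include TC19000686 and TC19000693, which share their values (0.597). The near balance of 19 and 20 thus rests on repeats, and shares of all clusters at these fold sizes were not computed. The median log2 change was 0.06928 for code 19 clusters and 0.04712 for the others. When each array was centred on its median the called clusters were 66 higher and 128 lower. The count was 147 without SPINK1 KD replicate d and 129 without replicate e. Counts under other settings, here and below, are given without the share of all clusters and do not set code 19 against the rest.

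Within a signal class the share of code 19 clusters called with the SPINK1 virus lay near that of the other clusters. Within the brightest class 16.4% of code 19 clusters were called for SPINK1 KD against NT in JHOC5, against 16.9% of the other clusters, and in the class below it 6.04% against 5.73%. In the brightest class the share higher was 8.42% against 6.36% of the other clusters, and the share lower was 7.97% against 10.6%. The 93 rises behind the 8.42% include the 12 copies of 1 set of values and the pair TC19000686 and TC19000693. These class shares were not computed with repeats counted once, so the larger share higher rests in part on repeats. Averaged over classes, the median log2 change of code 19 clusters was 0.0226 above that of the others.

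TC19000416 had the largest fall, and it fell in both lines. In JHOC5 its log2 signal was 6.394, 6.347 and 6.297 in SPINK1 KD arrays c, d and e, against 7.952, 7.925, 8.211, 8.193 and 7.936 in NT arrays a to e. In JHOC9 it was 9.319, 9.569 and 9.267 in SPINK1 KD arrays a, b and c, against 10.22, 10.38, 10.28, 10.33 and 10.35 in NT arrays a to e. In each line all SPINK1 KD arrays lay below all NT arrays, and all JHOC9 arrays lay above all JHOC5 arrays. The log2 change was -1.70 ± 0.0857 in JHOC5 (SE; limma adjusted p 1.13e-10) and -0.93 ± 0.0857 in JHOC9 (SE; limma adjusted p 1.61e-05). The JHOC9 change minus the JHOC5 change was 0.77 ± 0.121 (SE; limma adjusted p 0.00145), so the fall was larger in JHOC5.

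With the IL-6 virus TC19000416 moved otherwise. In JHOC5 it had 8.312, 8.399 and 8.67 in IL-6 KD arrays a, b and c, all above the NT arrays, a log2 change of 0.42 ± 0.0857 (SE; limma adjusted p 0.0127). That call was lost when only the groups compared were fitted (adjusted p 0.136), when arrays were centred on their median (0.0831) and without IL-6 KD replicate c (0.12). In JHOC9 it had 10.25, 10.23 and 10.2 in IL-6 KD arrays b, d and e, which overlapped the NT arrays. Set directly against the IL-6 KD arrays, the SPINK1 KD arrays were lower by a log2 difference of -2.11 in JHOC5 and -0.84 in JHOC9 (limma adjusted p 4.19e-11 and 0.000413), and the JHOC9 call was lost when only those groups were fitted (adjusted p 0.194).

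TC19002388 and TC19002397, close to each other in ID order, fell as well. TC19002388, a dim cluster in JHOC5, had 3.956, 3.788 and 3.253 in JHOC5 SPINK1 KD arrays, against 4.737, 4.644, 4.798, 5.212 and 4.702 in NT arrays. The SPINK1 KD arrays lay below all NT arrays, and the log2 change was -1.15 ± 0.172 (SE; limma adjusted p 0.000118). TC19002397 had 4.02, 4.309 and 4.305 in JHOC5 SPINK1 KD arrays, against 5.136, 5.182, 5.336, 5.24 and 5.178 in NT arrays, a log2 change of -1.003 (limma adjusted p 5.26e-07). In JHOC9 it had 5.813, 5.34 and 5.587 in SPINK1 KD arrays, against 6.116, 6.192, 6.261, 6.266 and 6.1 in NT arrays. These groups did not overlap either, and the log2 change was -0.61 ± 0.0982 (SE; limma adjusted p 0.0117). TC19002397 also lay below all JHOC9 NT arrays with the IL-6 virus, between 5.724 and 5.803, a log2 change of -0.43 that did not pass the test (limma adjusted p 0.0796). SPINK1 KD minus IL-6 KD in JHOC9 was -0.18 for it (limma adjusted p 0.489). TC19002388 had a log2 change of -0.49 with the SPINK1 virus in JHOC9 that did not pass the test (limma adjusted p 0.703). The JHOC9 call of TC19002397 was lost without SPINK1 KD replicate b (adjusted p 0.141) or c (0.0544), with only the groups compared (0.168), after cyclic loess (0.0915) and after centring each array on its median (0.0823).

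**Figure D4:**
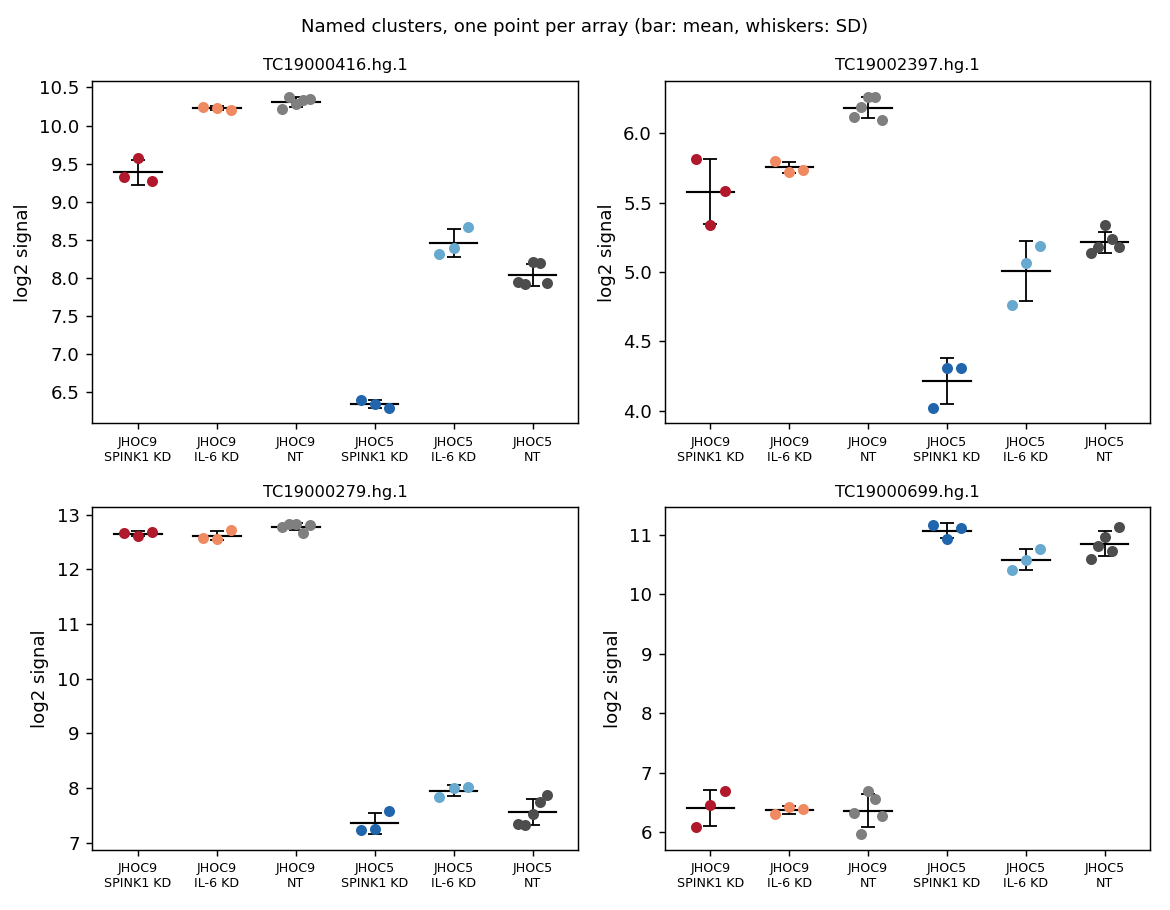
Log2 signal of 4 named code 19 clusters, 1 point per array, with the mean and SD of each group. TC19000416 and TC19002397 are lower in SPINK1 KD than in NT arrays in both lines, TC19000279 lies above 12.5 in every JHOC9 array, and TC19000699 lies above 10.4 in every JHOC5 array.

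The largest rises with the SPINK1 virus in JHOC5 were smaller than the largest falls. TC19001699 had 7.857, 8.377 and 8.366 in SPINK1 KD arrays, against 7.187, 7.69, 7.705, 7.355 and 7.806 in NT arrays. Its SPINK1 KD arrays lay above all NT arrays, replicate c by little, and the log2 change was 0.65 ± 0.137 (SE; limma adjusted p 0.00389). TC19002240, a dim cluster, had 4.112, 4.182 and 4.117 in SPINK1 KD arrays, against 3.3, 3.614, 3.457, 3.703 and 3.407 in NT arrays, a log2 change of 0.64 ± 0.107 (SE; limma adjusted p 0.000416). Neither was called in JHOC9, where TC19001699 averaged 5.865 ± 0.164 in SPINK1 KD arrays and 5.829 ± 0.0961 in NT arrays (SD, n = 3 and 5).

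Counted over distinct clusters, all 5 runs of called neighbours with the SPINK1 virus in JHOC5 were falls. They held 19 clusters, 8.12% of the distinct code 19 calls, against 2.7% of the calls in other codes. A code with more calls holds more runs, and the share lower was 4.97% in code 19, against 3.86% of all clusters. The shares in runs are therefore descriptions, and they rest on 5 runs. The longest, TC19000384 to TC19000389, held 6 clusters whose log2 changes ran from -0.661 to -0.445 with a median of -0.461. Its median log2 signal was 5.548, 5.515 and 5.589 in JHOC5 SPINK1 KD arrays c, d and e, against 6.002, 6.008, 5.881, 6.107 and 6.025 in NT arrays a to e, without overlap. Over the 22 arrays the deviations of its members from their group means correlated pairwise between -0.268 and 0.564. For the run TC19001148 to TC19001151 these correlations ran from 0.3 to 0.842. For TC19000400 to TC19000402 they ran from 0.244 to 0.527, and for TC19000576 to TC19000578 from 0.207 to 0.475. Whether the members of a run vary as 1 signal was not tested. The largest limma adjusted p among the 6 clusters of TC19000384 to TC19000389 was 0.0443.

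A second run of falls lay close by in ID order. TC19000400 to TC19000402 held 3 falls with a median log2 change of -0.523, and both runs lie in the window TC19000361 to TC19000410. That window had the lowest median of the 54 with the SPINK1 virus in JHOC5 (-0.0608, with 1 cluster higher and 12 lower) and also in JHOC9 (-0.0623, with 0 called). In JHOC9 the run TC19000384 to TC19000389 had 6.864, 6.808 and 6.737 in SPINK1 KD arrays a, b and c, against 6.923, 6.956, 6.988, 6.918 and 7.027 in NT arrays. The JHOC9 groups did not overlap either, the median log2 change over its clusters was -0.195, and 0 of the 6 passed the test. The same window was 0.275 higher in JHOC9 NT than in JHOC5 NT arrays by its median, with 30 clusters higher and 2 lower.

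The other 3 runs lay apart from it, and TC19001468 to TC19001470 had the smallest changes, with a median of -0.242 over 3 falls. TC19001148 to TC19001151 held 4 falls with the SPINK1 virus in JHOC5, with a median log2 change of -0.277. Its median log2 signal was 6.795, 6.735 and 6.846 in SPINK1 KD arrays c, d and e, against 7.093, 7.101, 7.249, 7.252 and 7.198 in NT arrays a to e. IL-6 KD arrays a and b, at 6.807 and 6.829, lay among the SPINK1 KD arrays, while IL-6 KD array c was at 7.116. TC19000576 to TC19000578 held 3 falls with a median of -0.455. Of the 54 windows, 39 had a median above that of the other codes with the SPINK1 virus in JHOC5. The highest, TC19001703 to TC19001754 (0.134, 10 higher and 1 lower), is the one that holds the 9 identical clusters.

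**Figure D5:**
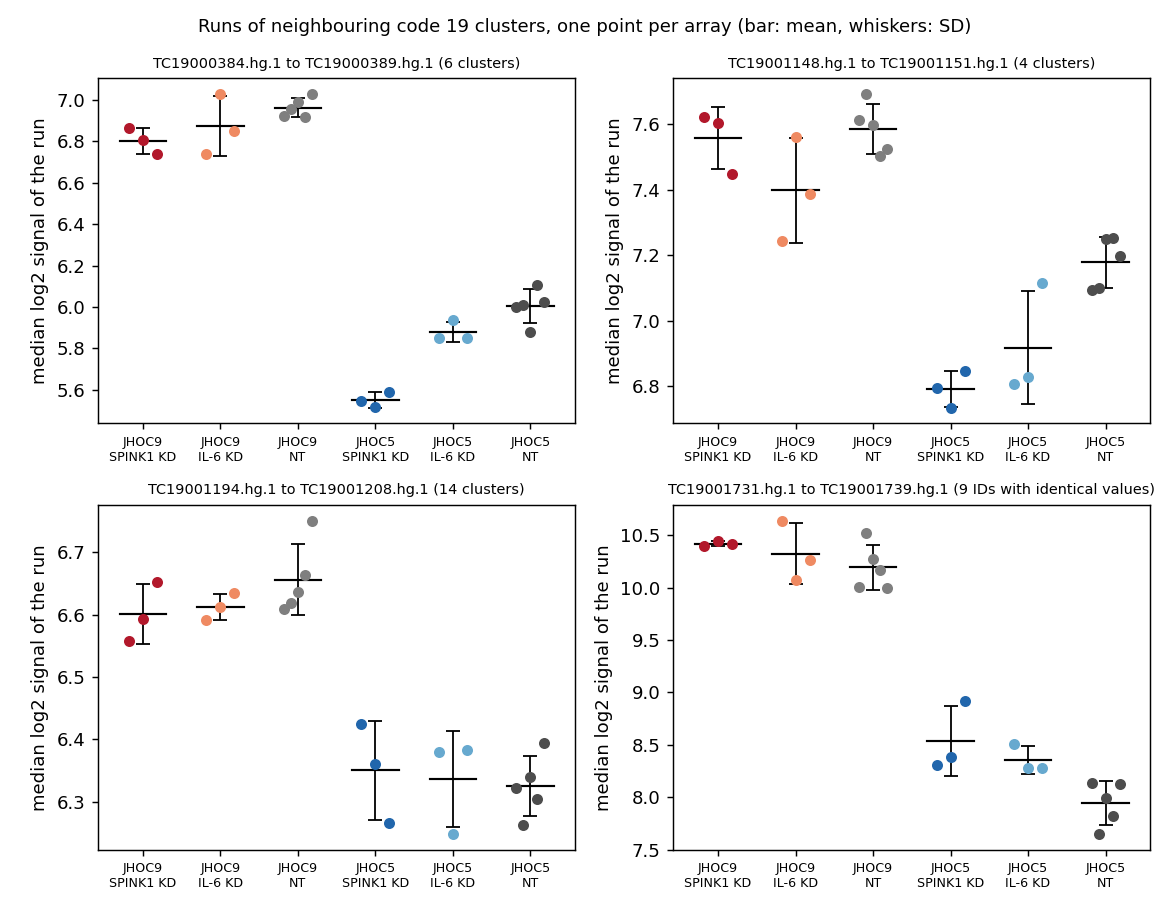
Median log2 signal of 4 runs of neighbouring code 19 clusters, 1 point per array, with the mean and SD of each group. In JHOC5 the upper 2 runs are lower in SPINK1 KD than in NT arrays, and the lower 2 runs are higher in every JHOC9 array than in every JHOC5 array.

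In JHOC9 the SPINK1 virus called 2 code 19 clusters, TC19000416 and TC19002397, both lower (0.0748%, against 0.0839% of all clusters). An unadjusted p under 0.05 was found for 148 clusters (5.53%, near the 4.95% of all clusters). A fit with the replicate letter as a block within each line, over all arrays, called 7 clusters, 2 higher and 5 lower. The letters were taken to pair the SPINK1 KD and NT arrays here, although replicate c correlated more with another letter. Without the block, leaving out SPINK1 KD replicate b gave a count of 1. Of the 113 clusters higher with the SPINK1 virus in JHOC5 (101 distinct), 100 had a positive log2 change in JHOC9, with repeats counted each time (median 0.318 in JHOC5 and 0.0844 in JHOC9). Of the 133 lower in JHOC5, 117 had a negative change in JHOC9 (median -0.378 and -0.113), and they include both JHOC9 falls. These counts were not set against the same shares over all clusters, so the agreement is not shown to be particular to code 19. The median change over all code 19 clusters was -0.001558 in JHOC9, close to the -0.003501 of the others.

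The size of the SPINK1 KD change differed between the lines for 15 code 19 clusters (0.561%, against 1.24% of all clusters). SPINK1 KD against NT had called 14 of them in JHOC5 and 1 in JHOC9, and the change was larger in JHOC5 for 14. Their median absolute log2 change was 0.118 in JHOC9 and 0.578 in JHOC5. The clusters were picked for a difference between the lines, so a large change in 1 line and a small change in the other is largely fixed by that choice. Over all clusters SPINK1 KD against NT called 6.54% in JHOC5 and 0.0839% in JHOC9, so the larger change in JHOC5 is not shown to be particular to code 19. The count fell to 5 without JHOC5 SPINK1 KD replicate d or e and was 8 and 6 without JHOC9 SPINK1 KD replicates a and b, while without JHOC5 SPINK1 KD replicate c it was 29.

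The IL-6 virus called fewer code 19 clusters. In JHOC5, IL-6 KD against NT called 11 higher and 23 lower (1.27%, against 1.39% of all clusters), and in the brightest class 2.08% of code 19 clusters were called, against 4.06% of the others. With the replicate letter as a block, although the letters were not taken to pair these arrays, the balance turned to 28 higher and 14 lower. The median log2 change was 0.04539 for code 19 clusters and 0.02173 for the others, and without IL-6 KD replicate a the difference between these medians was -0.0104. The count was 14 without IL-6 KD replicate a or b, 16 without NT replicate d and 20 without NT replicate e. In JHOC9 1 cluster was called, lower (0.0374%, against 0.243% of all clusters), and 322 (12%, beside 10.8% of all clusters) had an unadjusted p under 0.05. That count ranged between 0 and 8 when single arrays were left out, at 0 without NT replicate c or IL-6 KD replicate b or e, 8 without NT replicate d or IL-6 KD replicate d, and 2 without NT replicate e. For the difference of the IL-6 KD change between lines limma called 0 code 19 clusters (0.00305% of all clusters), with 186 (6.96%, beside 6.67% of all clusters) at an unadjusted p under 0.05.

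Among the clusters that changed with the IL-6 virus, TC19000936 kept its call under each of the 18 alternatives run. It had 6.192, 6.291 and 6.342 in JHOC5 IL-6 KD arrays a, b and c, against 6.695, 6.727, 6.761, 6.876 and 6.836 in NT arrays a to e. The groups did not overlap, and the log2 change was -0.50 ± 0.0511 (SE; limma adjusted p 7.15e-06). In JHOC9 its IL-6 KD arrays, between 6.267 and 6.385, also lay below the NT arrays, between 6.501 and 6.592, with a log2 change of -0.22 that did not pass the test (limma adjusted p 0.0867). TC19000936 fell with the SPINK1 virus in JHOC5 as well, where all SPINK1 KD arrays, between 6.528 and 6.553, lay below the NT arrays (log2 change -0.24, limma adjusted p 0.00437).

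The other named changes were less stable. TC19001212 had 7.793, 8.098 and 7.89 in JHOC5 IL-6 KD arrays, against 8.151, 8.483, 8.52, 8.325 and 8.477 in NT arrays, a log2 change of -0.46 ± 0.1 (SE; limma adjusted p 0.0189). The groups lay next to each other without overlap, and the call was lost without IL-6 KD replicate a (adjusted p 0.145) or c (0.0899) and without NT replicate c (0.0508) or e (0.0514). TC19001932 had 8.213, 8.412 and 8.51 in JHOC5 IL-6 KD arrays, against 7.918, 8.035, 8.144, 7.888 and 7.923 in NT arrays, a log2 change of 0.40 ± 0.0766 (SE; limma adjusted p 0.0081), which was lost without IL-6 KD replicate c (adjusted p 0.0757). The 1 call in JHOC9, TC19001542, had 8.462, 8.642 and 8.353 in IL-6 KD arrays, against 9.027, 9.073, 9.099, 8.894 and 8.974 in NT arrays. All IL-6 KD arrays were lower, with a log2 change of -0.53 ± 0.0932 (SE; limma adjusted p 0.0175), and the call was lost without NT replicate c (adjusted p 0.0533) or IL-6 KD replicate b (0.0797) or e (0.16). When only the groups compared were fitted, the calls of TC19001212, TC19001932 and TC19001542 were all lost (adjusted p 0.0873, 0.0855 and 0.112). Centring the arrays ended those of TC19001212 and TC19001932 (0.0655 and 0.0686), and the replicate block ended that of TC19001542 (0.0527).

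Set directly against each other, the KD arrays differed more in JHOC5. There, SPINK1 KD against IL-6 KD called 74 code 19 clusters higher and 96 lower (6.36%, against 5.97% of all clusters), with TC19001699 the largest rise (log2 difference 0.96 ± 0.153, SE; limma adjusted p 0.000277). The count was 105 and 103 without SPINK1 KD replicates d and e and 107 without IL-6 KD replicate c. In JHOC9 23 were higher and 1 lower (0.898%, against 0.629% of all clusters), the lower one being TC19000416. This count was 0 when only the groups compared were fitted, 2 with the replicate block and 351 with array weights. It was 3, 6 and 14 without SPINK1 KD replicates a, b and c, while leaving out IL-6 KD replicate b gave 15 and replicate e gave 2. Of the 9 clusters with gl000209_random in their IDs, which had a median log2 signal of 4.669, 1 was called between the NT arrays of the lines and 0 with the SPINK1 virus in JHOC5, too few clusters to set against the shares of all clusters.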

How the data were processed

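Per the labels, 200 ng of total RNA was labelled and hybridised for each array. The submitters' processing notes name RMA (background correction, normalization across arrays, probe summary) without a version, and no source used here gives its software, the annotation or the genome build. The deposited log2 values are each cluster's log2 signal minus its median over the 22 arrays, within 2.06e-06, and the same authors' second table holds the deposited linear intensity values from which levels were taken. Groups came from the sample titles.

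All 22 arrays entered a single limma 3.58.1 fit (R 4.3.3, version 1.17.8 of data.table) with 6 group means. Contrasts were tested two-sided with eBayes (16 residual and 4.22 prior degrees of freedom) and Benjamini-Hochberg adjustment over 65526 clusters at 0.05. The fit was tested on simulated data. SDs are over arrays and SEs are moderated. The array number limits the precision. Figures used matplotlib 3.10.9 under Python 3.11.15.

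Windows were 50 and runs at least 3 clusters in ID order. Values agreeing within 1e-05 on all arrays were taken as repeats. Named clusters had the largest changes, up to 2 each way for a KD against NT and 1 each way otherwise, among those called with all arrays of the first group outside the range of the second. TC19002397 in JHOC5, TC19000936 in JHOC9 and the runs were described in addition, after their values were seen. The members, lists and comparisons were chosen with earlier results of these data known.

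Replicate letters were checked for pairing. Deviations of same-lettered SPINK1 KD and NT arrays in JHOC9 correlated at 0.432, 0.322 and 0.203, all above 0.1. The letters were therefore taken to pair these arrays and the paired count stands beside the unpaired one, although replicate c correlated more (0.435) with another letter. The fit behind the paired count held the letter as a block for all arrays of each line, the IL-6 KD arrays included. Each other comparison with NT, and NT against NT, had a pair under 0.1, and SPINK1 KD and IL-6 KD arrays of a line share only 1 letter, too few to pair them. Alternatives were the letter as a block, only the groups compared, a filter on dim clusters, 3 other normalizations, eBayes with trend and robust, the second table, array weights, repeats counted once, windows of 100, and each array left out.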

Additional observations from a re-analysis of the deposited data

Results flagged for a closer look

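In a group of 5 arrays an array far from the rest is met by chance in about 1 group in 20, and 52 groups of NT arrays were examined, over the named clusters, the runs and the medians per array. TC19000279 had a log2 signal of 12.66 in JHOC9 NT replicate d, below the other 4 JHOC9 NT arrays, which lay between 12.78 and 12.82. TC19002388 had 5.212 in JHOC5 NT replicate d, above the other 4 JHOC5 NT arrays, which lay between 4.644 and 4.798. The test of the difference between lines called 15 code 19 clusters whose change with the SPINK1 virus differed between JHOC9 and JHOC5. TC19000416 is one of them, with a JHOC9 change minus JHOC5 change of 0.7702 on the log2 scale.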

How the results depend on the processing

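The line difference on NT arrays was the most stable result: its 1093 calls became between 999 and 1191 under the other settings and between 981 and 1065 with 1 array left out, and the median of code 19 clusters stayed between 0.0648 and 0.0844 above that of the others. This comparison has the largest groups (5 arrays each), and the code was chosen by such medians and shares. Refits of the same arrays therefore describe the processing and add no support. With the replicate block the calls were 7 for SPINK1 KD and 2 for IL-6 KD against NT in JHOC9, 2 for SPINK1 KD against IL-6 KD in JHOC9, 35 for the SPINK1 KD and 1 for the IL-6 KD difference between lines, and in JHOC5 the IL-6 KD calls were 28 higher and 14 lower. Only SPINK1 KD against NT in JHOC9 was treated as paired. With only the groups compared they were 1 for SPINK1 KD and 0 for IL-6 KD against NT in JHOC9, 8 for IL-6 KD against NT in JHOC5, and 0 in JHOC9 and 79 in JHOC5 for SPINK1 KD against IL-6 KD. Arrays centred on their median gave 1 call for SPINK1 KD and 2 for IL-6 KD in JHOC9 and 15 for IL-6 KD in JHOC5, and for SPINK1 KD in JHOC5 66 higher and 128 lower. For IL-6 KD in JHOC9 the dim-cluster filter gave 3 calls and repeats counted once 2, and cyclic loess gave 1 for SPINK1 KD in JHOC9. For SPINK1 KD against IL-6 KD in JHOC9 a second quantile normalization gave 14 calls and eBayes with trend and robust 13, and that eBayes setting gave 8 for the SPINK1 KD difference between lines. Array weights gave the highest counts: 138 and 382 for SPINK1 KD against NT in JHOC9 and JHOC5, 8 and 169 for IL-6 KD, 351 and 348 for SPINK1 KD against IL-6 KD, and 135 and 16 for the SPINK1 KD and IL-6 KD differences between lines. They gave JHOC9 SPINK1 KD replicate b a weight of 6.46 and JHOC5 IL-6 KD replicate b 3.28. With 1 array left out the calls ranged between 1 and 3 for SPINK1 KD in JHOC9, 129 and 244 in JHOC5, 0 and 8 for IL-6 KD in JHOC9, 14 and 34 in JHOC5, 2 and 17 for SPINK1 KD against IL-6 KD in JHOC9, 103 and 159 in JHOC5, and 5 and 29 for the SPINK1 KD difference between lines. These counts are of code 19 clusters alone, without the share of all clusters under each setting. They do not show whether code 19 moved more than the rest, and the cause of these movements was not tested. The median of code 19 clusters relative to the others moved by less than the pooled SD between arrays (0.0341) in each comparison with NT. That SD is wider than the value itself for each KD against NT, at most 0.0237. For IL-6 KD in JHOC5 the value ranged between -0.0104, without IL-6 KD replicate a, and 0.0453, without replicate c. In JHOC9 it ranged between -0.0133 and 0.0249 for SPINK1 KD and between -0.0183 and 0.0187 for IL-6 KD. None of these had a settled sign, while for SPINK1 KD in JHOC5 it stayed between 0.011 and 0.0414. The lines compared on KD arrays and the medians averaged over signal classes were added after seeing the data.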
